A study of Mus musculus with 9 samples.

Results

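The regions described here were sites of the cohesin subunit Rad21 that were called in pre-B cells, in neither thymocyte population, and away from every called CTCF peak. Peaks of the 3 Rad21 lists that shared at least 1 bp on chromosomes 1 to 19 were merged into 45491 sites, and a site was kept when its only peak came from pre-B cells and overlapped no CTCF peak of pre-B or of cultured pro-B cells. The rule left 1383 sites, which was 3.04% of all merged Rad21 sites (95% exact interval, 2.88 to 3.20). They made up 4.67% of the 29622 sites with a pre-B peak and 14.8% of the 9369 sites called in pre-B cells alone. The pre-B call and the missing calls in the other lists are the measured values these sites were chosen by, so their number, score and lack of CTCF are given as descriptions with no test.

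The study examined CTCF and Rad21 by ChIP-seq in lymphocyte progenitors of C57BL/6 mice that all lacked a RAG protein, so that antigen receptor loci stayed in germline form. Pre-B cells were bone marrow cells of RAG-/- mice, 6 to 14 weeks old, that carried a rearranged IgM transgene, and both CTCF and Rad21 were precipitated from them. Pro-B cells came from the marrow of RAG1-/- mice, also 6 to 14 weeks old, and were cultured with IL7 for 7 days before the CTCF precipitation, and CD4-CD8- (DN) thymocytes came from Rag1-/- mice aged 4 to 8 weeks. CD4+CD8+ (DP) thymocytes came from Rag1-/- mice of the same ages with a rearranged T cell receptor β transgene, which carries the cells past the block, and Rad21 was precipitated from both thymocyte populations. CTCF in thymocytes was not analysed here. Cell identity rests on the genotype, since peak lists hold no expression values against which it could be checked.

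Each group had 1 library, so no value has a spread between animals and no condition was tested against another. The lists held 30488 (pre-B), 9701 (DN) and 36743 (DP) Rad21 peaks, and 42250 (pre-B) and 71080 (pro-B) CTCF peaks, and the number of reads behind each is unknown. The lowest scores admitted also differed, from 50 in the pro-B CTCF list to 86.45 in the DN list. A site near the score limit can therefore be missing from another list for reasons of depth, which cannot be told apart from absence of the protein. All intervals are exact (Clopper-Pearson, 95%) and cover counting error only.

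Cohesin is a ring-shaped complex that holds DNA strands together and forms chromatin loops, and Rad21 is the subunit that closes the ring. CTCF is a zinc finger protein that stops cohesin at oriented motifs, so most cohesin peaks in mammalian cells coincide with CTCF. Cohesin without CTCF has been described at active promoters and enhancers that are occupied by transcription factors of the cell type, which in early B cells include E2A, EBF1, PAX5, PU.1 and IRF4.

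The sequences of 6 sites are shown because they are among the highest-scoring sites within 10 kb of genes of the B-lineage lists, at most 1 per gene. Each is the 250 bases about the midpoint of the peak, read 5′ to 3′ from the plus strand of mm9 (NCBI assembly 37), with capitals where a motif searched here was matched. Sites whose bases overlapped an annotated untranslated region, such as the stronger site at Klf2 and that at Pou2f1, were passed over.
Irf8, chr8:123271078-123271327: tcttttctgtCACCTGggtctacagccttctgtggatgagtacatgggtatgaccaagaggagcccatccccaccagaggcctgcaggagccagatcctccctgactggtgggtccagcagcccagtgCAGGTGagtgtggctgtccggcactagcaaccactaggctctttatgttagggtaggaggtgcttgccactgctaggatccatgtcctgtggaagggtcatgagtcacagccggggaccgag
Ets1, chr9:32459881-32460130: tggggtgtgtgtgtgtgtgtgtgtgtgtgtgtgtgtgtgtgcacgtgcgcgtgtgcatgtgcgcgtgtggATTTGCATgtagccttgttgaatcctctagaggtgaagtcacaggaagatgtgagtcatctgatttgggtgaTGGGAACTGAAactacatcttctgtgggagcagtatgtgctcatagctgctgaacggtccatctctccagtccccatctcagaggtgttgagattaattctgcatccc
Klf2, chr8:74846252-74846501: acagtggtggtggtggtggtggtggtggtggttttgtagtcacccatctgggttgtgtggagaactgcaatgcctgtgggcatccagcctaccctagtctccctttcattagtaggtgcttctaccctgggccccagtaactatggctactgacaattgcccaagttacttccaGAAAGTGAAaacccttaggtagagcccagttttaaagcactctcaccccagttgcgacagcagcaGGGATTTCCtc
Mef2c, chr13:83789534-83789783: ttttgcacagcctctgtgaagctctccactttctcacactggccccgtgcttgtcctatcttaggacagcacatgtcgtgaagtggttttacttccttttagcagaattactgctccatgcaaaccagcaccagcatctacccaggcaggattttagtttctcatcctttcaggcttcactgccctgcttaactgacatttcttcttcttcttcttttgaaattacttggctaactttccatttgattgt
Inpp5d, chr1:89554692-89554941: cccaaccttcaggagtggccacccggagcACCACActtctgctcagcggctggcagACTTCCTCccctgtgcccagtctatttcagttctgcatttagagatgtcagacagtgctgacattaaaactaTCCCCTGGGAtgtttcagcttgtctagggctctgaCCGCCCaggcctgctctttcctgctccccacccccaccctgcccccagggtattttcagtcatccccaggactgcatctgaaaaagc
Bcl11a, chr11:24041710-24041959: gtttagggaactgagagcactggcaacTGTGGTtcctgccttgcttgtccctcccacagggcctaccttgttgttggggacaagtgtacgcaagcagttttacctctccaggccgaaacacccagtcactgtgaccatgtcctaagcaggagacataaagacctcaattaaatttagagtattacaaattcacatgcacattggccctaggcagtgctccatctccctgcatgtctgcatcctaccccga
The capitals in the Irf8 sequence mark the E-box CAGGTG on either strand, and those in the Inpp5d sequence mark a PU.1 match, a pair of overlapping EBF1 matches on opposite strands, RUNX and SP. At Ets1 they mark the octamer ATGCAAAT read on the minus strand and a merged Ikaros and ETS-IRF match. At Klf2 they mark IRF and NF-kB matches, and at Bcl11a a RUNX match. The Mef2c sequence held none of the 16 motifs.

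Sites of this kind were weak peaks. Their median score, taken to be the value that MACS derives from the p-value of a peak against input although the files do not say so, was 76.8, and their median percentile in the pre-B Rad21 list was 13.7 (quartiles 6.17 and 25.6). Only 43 of the 1383 sites (3.11%) lay above the median of the list, and 0 lay in its top 10%. In steps of 20 percentile points of the list from the weakest up, they made up 15.1%, 6.26%, 1.80%, 0.303% and 0% of the sites with a pre-B peak. The corresponding counts were 892, 367, 106, 18 and 0, the last of 6032 sites, which allows a share of up to 0.0611%. Peak width was ordinary, with a median of 612 bp against 619 bp over the whole list.

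Pre-B-only sites that overlapped CTCF ranked higher, with a median percentile of 29.5, and sites shared with thymocytes that overlapped CTCF had a median of 65.2. Shared sites without CTCF had a median of 19.7. The absence of CTCF thus went with low scores whether or not thymocytes shared the site, and thymocyte sharing went with higher scores. Among sites with a pre-B peak, 62.7% of the 2206 without CTCF were called in pre-B cells alone (interval 60.6 to 64.7), against 29.1% of the 27416 with CTCF (28.6 to 29.7). The gap varied with score, in a split of the list chosen after the data were seen. In the lowest 20% of the list the shares were 68% of 1312 (65.4 to 70.5) and 60.2% of 4582 (58.8 to 61.6), in the next 20% they were 56.8% and 47.9%, and between the 40th and 60th percentile they were 49.8% of 213 (42.9 to 56.7) and 30.7% of 5675 (29.5 to 31.9). Of the sites between the 60th and 80th percentile, 33 were without CTCF, 18 of them called in pre-B cells alone (54.5%, 36.4 to 71.9), against 13.5% of those with CTCF. These are the calls the rule used and are given as a description. Their number rested on the weak part of the list: with each Rad21 list limited to its 9701 strongest peaks, the length of the DN list, only 7 sites met the rule, and of the 1383 sites 335 had a score of at least 100. With that minimum in every list 641 sites met the rule, since weaker CTCF and thymocyte peaks were then dropped too.

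**Figure D1:**
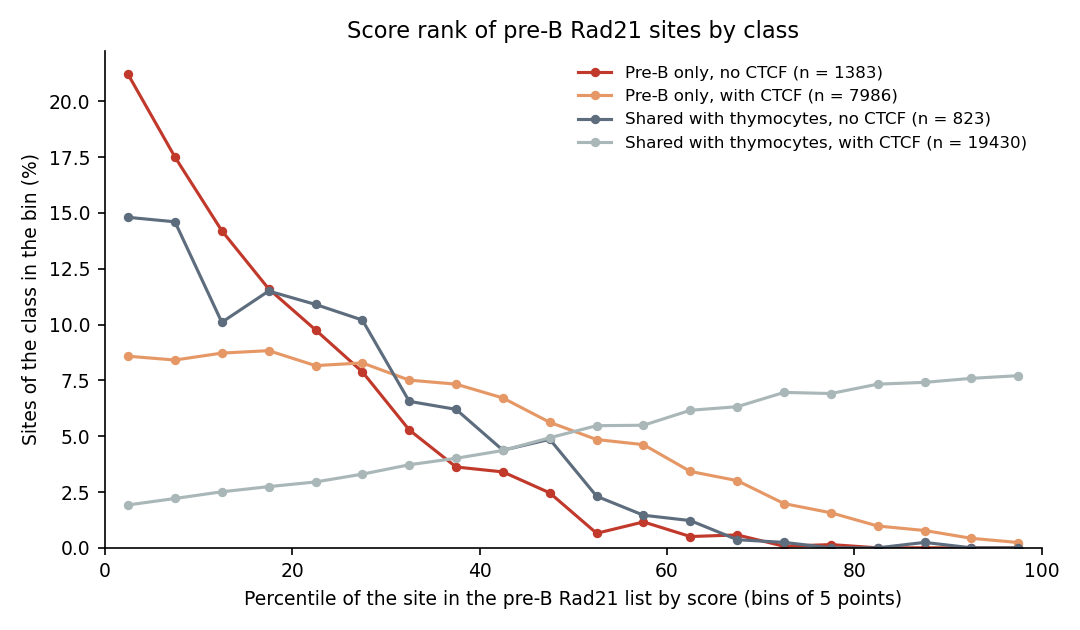
Share of the sites of each class (y axis, percent) in bins of 5 percentile points of the pre-B Rad21 list by score (x axis, weakest peaks at the left). The line of the 1383 pre-B-only sites without CTCF is highest in the first bins and near 0 above the 70th percentile, whereas sites shared with thymocytes and overlapping CTCF become more frequent towards the right.

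The strongest site had a score of 493.68, or percentile 79.1, and lay on chromosome 18 in Zfp608, which encodes a zinc finger protein, 1643 bp from the nearest start. The next, at chr13:112725964-112727194, scored 468.77 and was 126762 bp from the start of Map3k1, a kinase of the MAP kinase cascade. The third was in an intron of Plekha2 with a score of 353.72. Of the 10 strongest sites, only that over the start of Wdfy4 (score 316.61) was at a promoter.

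The other 6 of these were intergenic and far from any coding start. A pair lay 194492 and 111935 bp from Cxcr4, the receptor that retains B-cell precursors in bone marrow, with scores of 329.47 and 326.96. Another, with a score of 328.62, had the start of Btg1, an antiproliferative gene, as its nearest coding start, 215633 bp away. The remaining sites had Arid1b (258460 bp, score 336.16), Gm10293 (141464 bp, 323.17) and Tomm20 (111771 bp, 311.17) as the nearest coding gene.

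At the edge of the rule, the sites that came closest to a CTCF peak were 3 bp (near Gna11, score 62.98), 19 bp (near Arpc5l, 62.49) and 24 bp (near Srrm1, 77.4) from it. The pre-B-only sites with the smallest overlap, which the rule left out, shared 4 bp (near Diras2, 62.17), 5 bp (near Ell, 70.69) and 5 bp (near Fam43a, 72.84) with a CTCF peak. In all, 26 sites inside the rule had a gap of at most 100 bp, and 21 outside it had an overlap of at most 100 bp. The rule therefore divides few sites narrowly. The median distance to the nearest CTCF peak was 4521 bp, 18.7% lay within 1 kb of a CTCF peak (interval 16.7 to 20.9), and 52.4% lay within 5 kb. A thymocyte Rad21 peak lay within 1 kb of 12.4% of the sites (10.7 to 14.2), compared with 7.66% of pre-B-only sites with CTCF (7.09 to 8.27).

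Most of the sites were distal. A transcription start of any annotated gene lay within 1 kb of 318 sites (23.0%, interval 20.8 to 25.3), beside 18.5% of all pre-B Rad21 sites. Introns held 481 sites (34.8%), exons 41 (2.96%) and intergenic sequence 543 (39.3%). The median distance to a protein-coding start was 14145 bp, and 13.1% of the sites were over 100 kb from such a start (11.4 to 15.0), against 8.24% of all pre-B sites (7.93 to 8.56). When all 5 lists, CTCF included, were limited to 9701 peaks, 885 sites met the rule with a promoter share of 13.1%, but 878 of these overlapped a peak of the whole CTCF lists.

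Whether thymocytes shared a site went with a large difference in place among sites without CTCF. The shared sites without CTCF were at promoters in 51.8% of cases (48.3 to 55.2), and their median distance to a coding start was 1389 bp. The pre-B-only sites with CTCF had a promoter share of 14.0% (13.3 to 14.8), and the shared sites with CTCF 18.7%. The intervals of the 4 classes did not overlap, apart from any error between libraries, which could not be measured.

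Score was related to place as well, so the shares were also taken within the lowest 20% of the list by score, a restriction chosen after the data were seen. There, 24.0% of the 892 sites without CTCF were at promoters (21.2 to 26.9), which was close to the 23.6% of all 5894 pre-B sites in that range (22.6 to 24.7). The pre-B-only sites with CTCF stood at 15.4% (14.1 to 16.8), the shared sites with CTCF at 29.2% (27.1 to 31.3), and the shared sites without CTCF at 52.9% (48.0 to 57.7). The sites and all pre-B sites of like score thus differed by less than their counting error, whereas both classes of shared sites lay above them. The order of the sites and the shared sites with CTCF was thus turned round among weak peaks. The promoter and distal sites had median percentiles of 13.2 and 14.0, and 4 of 318 and 39 of 1065 of them lay above the list median.

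**Figure D2:**
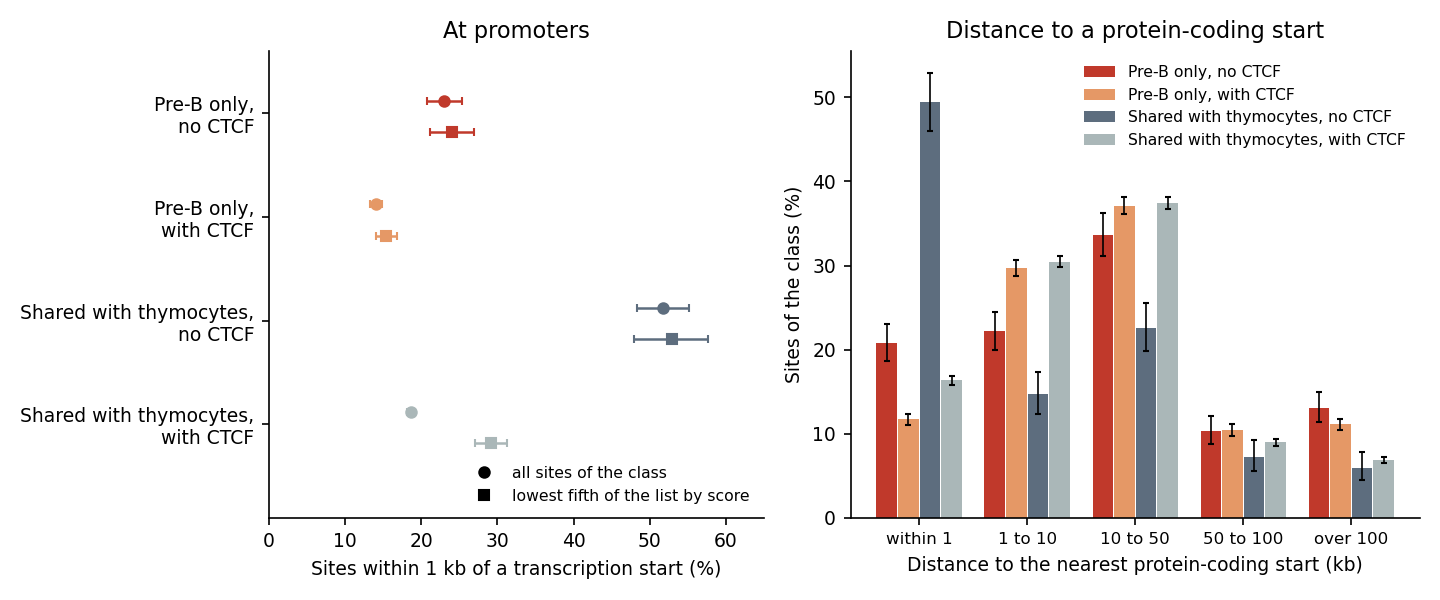
Left, share of each class within 1 kb of a transcription start (x axis, percent), for all sites (circles) and for the lowest 20% of the list (squares). Right, share of each class (y axis, percent) by distance to the nearest protein-coding start (x axis, kb), with bars or whiskers giving exact 95% intervals. The pre-B-only sites without CTCF (red) lie between pre-B-only sites with CTCF and shared sites without CTCF in promoter share, shared sites with CTCF lie below them overall but above them in the lowest 20%, and 13.1% of them lie over 100 kb from a start.

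Genes of the B-lineage lists, which were chosen with earlier results of these data known, often had such a site. Of 102 genes in 5 lists of B-lineage genes, 29 (28.4%, interval 19.9 to 38.2) held a site in the gene or within 10 kb of it, whereas 4.94% of all 21418 protein-coding genes did. Long genes held such sites more often, so the shares were also compared by length, a comparison added after the data were seen. Between the length quartiles of the listed genes (9473 to 101011 bp), 9 of 50 listed genes (18%, 8.58 to 31.4) and 5.38% of coding genes (4.97 to 5.82) had a site. Among longer genes the counts were 13 of 26 listed genes (29.9 to 70.1) and 229 of 2241 coding genes (10.2%), and among shorter genes 7 of 26 (26.9%, 11.6 to 47.8) and 2.89%. The 29 genes held 44 sites, with a median percentile of 20, and 3 of these lay above the list median. With the 3 Rad21 lists limited to 9701 peaks, 0 of the 102 genes held any of the 7 sites left. With all 5 lists so limited the count was 14 genes, nearly all of the sites being ones that overlap the whole CTCF lists.

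Transcription factors of the B lineage had the highest share, with 12 of 33 genes (36.4%, 20.4 to 54.9). It was followed by homing and adhesion with 3 of 10, B-cell receptor signalling and surface genes with 9 of 35 (25.7%), cell cycle and survival with 3 of 13, and pre-B receptor, recombination and cytokine receptor genes with 2 of 11. The T-lineage list had 6 of 37 (16.2%, 6.19 to 32.0), the myeloid list 2 of 18, the erythroid and megakaryocyte list 1 of 13 and the housekeeping list 2 of 19. The intervals of the 5 B-lineage lists overlapped each other and that of the T-lineage list, so differences between them were not resolved with lists of these sizes.

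Other classes of pre-B sites were also more frequent at the listed genes than at coding genes in general. For pre-B-only sites with CTCF the share was 48.0% of the 102 genes against 24.9% of all coding genes. Shared sites without CTCF were found at 20.6% against 4.16%, and shared sites with CTCF at 88.2% against 52.1%. The nearness to B-lineage genes was therefore not a property of the pre-B-only sites without CTCF alone.

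**Figure D3:**
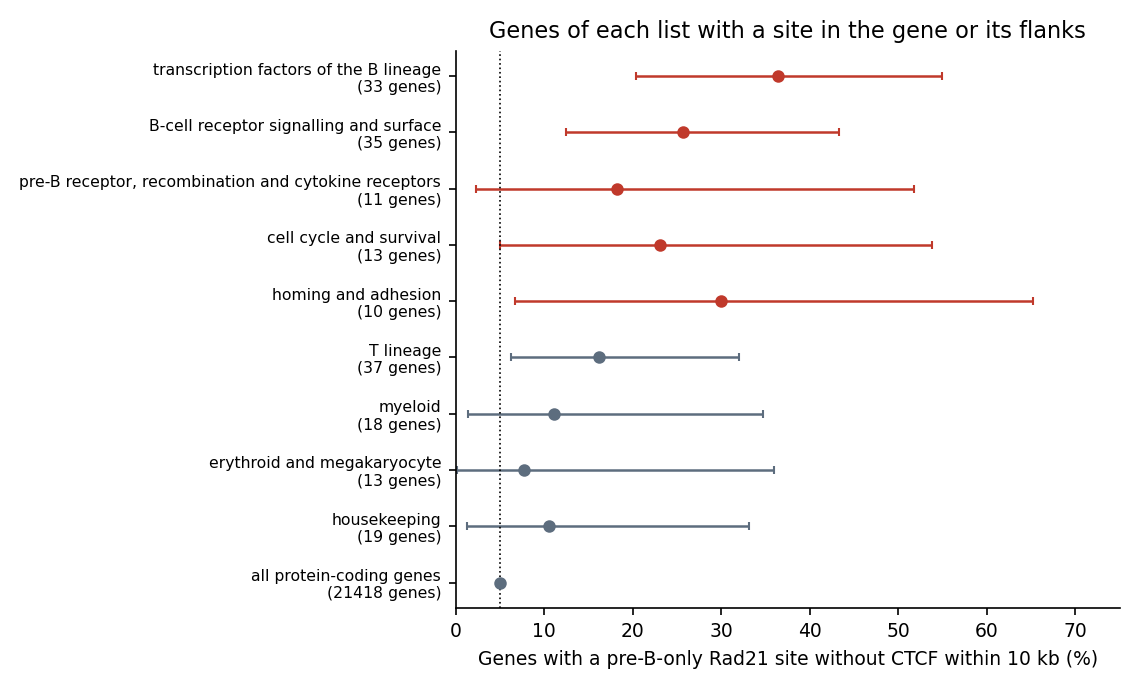
Share of the genes of each list (x axis, percent, with exact 95% intervals) that held a pre-B-only Rad21 site without CTCF in the gene or within 10 kb. Red points are the 5 B-lineage lists and grey points the other lists and all protein-coding genes, whose share of 4.94% is the dotted line. The B-lineage points lie between 18.2% and 36.4%, and the intervals of the small lists are wide.

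Among the transcription factors, Mef2c, a MADS-box factor active in B-cell development, held the most sites. Its 5 sites had scores of 144.5, 76.65, 103.07, 137.66 and 167.03, and 3 of them lay within 1 kb of an annotated start of the gene. The first 4 spanned 8258 bp with no CTCF peak and no thymocyte Rad21 peak among them, and the nearest thymocyte Rad21 peak was 129106 bp from the closest of them. Ebf1, a factor required to specify the B lineage, held 4 intronic sites with scores of 69.94, 64.3, 115.89 and 74.6. The nearest to a start of Ebf1 was 2759 bp from it, and none was at a promoter. The Ebf1 site of 74.6 only narrowly met the rule, at 146 bp from a DP Rad21 peak and 261 bp from a DN one.

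Irf8, Ets1, Klf2 and Pax5 held 2 sites each. Irf8, an interferon regulatory factor of B and myeloid cells, had the highest score of any listed gene, 228.89, at 1192 bp from its start, and a further site of 63.19 beyond it. No other kind of pre-B Rad21 site was called in the window of Irf8. Ets1, a factor of lymphoid cells, had intronic sites with scores of 222.23 and 156.76. Klf2, a regulator of lymphocyte quiescence and trafficking, had sites of 210.06 and 168.86 within 3011 bp of its start. Those of Pax5, which maintains B-cell identity, scored 67.71 and 90.14 and lay 1430 bp downstream and 1406 bp upstream of a start, and the window of Pax5 also held 9 pre-B-only sites with CTCF.

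The remaining factors had 1 site each. The site of Bcl11a, a factor required for early B cells, was 312 bp from a start and scored 130.27, and that of Pou2f1, which binds the octamer, was over its start and scored 123.94. The sites of Erg (102.51), Aff3 (83.45) and Tcf4 (83.35) were intronic and between 17103 and 27769 bp from the nearest start of the gene. Tcf4 encodes an E protein related to E2A.

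Of the signalling and surface genes, Inpp5d had 3 intronic sites with scores of 87.18, 118.14 and 144.06. The last lay 450 bp from a DP Rad21 peak. Inpp5d encodes the lipid phosphatase SHIP1, which restrains B-cell receptor signalling. Intronic sites were found in Plcg2 (106.24), the phospholipase downstream of the receptor, in Vav2 (87.16), an exchange factor, and in Syk (76.83), the kinase recruited to the receptor. The site assigned to Cd79b, a signalling chain of the receptor, scored 80.07 and lay outside the gene, nearer to the start of Gh than to that of Cd79b.

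Among receptors for cytokines and chemokines, the site of Il7r, which conveys the main growth signal of B-cell precursors, lay over its start with a score of 96.06 and was the only pre-B Rad21 site in the window. Flt3, a receptor of early progenitors, had sites of 61.22 in an exon and 68.95 over its start, the latter 353 bp from a pro-B CTCF peak. Cxcr4 had a site of 150.78 at 4004 bp downstream. S1pr1 (105.64), a receptor for egress into blood, and Ccr9 (82.11), a chemokine receptor, had 1 site each. Of the cell cycle genes, Btg1 had sites of 66.84 and 62.87 downstream of the gene. Ccnd2 (83.53) had a site over its start, 381 bp from a pro-B CTCF peak. Ccnd3 (75.6), the cyclin needed for pre-B expansion, had an intronic site.

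Cd79a, Fli1, Lyn and Siglecg also had 1 site each. In all, 9 of the 29 genes held a site within 1 kb of a start of their own. These were 11 of their 44 sites, beside 23.0% of all 1383 sites at a promoter of any gene. Of the 29 genes, 19 also held a pre-B-only site with CTCF, as did 49 of the 102 listed genes and 24.9% of coding genes. In the other lists, Dtx1 and Notch1, both of the Notch pathway, had 2 sites each, and Cd2, Il2ra, Cd5, Fyn, Cd14, S100a8, Gfi1b and Actb were among those with 1. The higher-scoring site of Dtx1 scored 142.31.

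Few sites lay close together. With gaps of at most 0.5 times 25 kb, 67 of the sites (4.84%, 3.77 to 6.11) fell into 21 clusters of at least 3, of which 4 clusters had 4 sites and 17 had 3. Pairs accounted for a further 174 sites (12.6%, 10.9 to 14.4). Pre-B-only sites with CTCF were in clusters in 6.26% of cases and shared sites without CTCF in 2.31%. These shares rise with the number of sites in a class, which ranged from 823 to 19430, so they were not compared further. The share also depended on the gap, being 2.24% with 5 kb and 8.75% with 25 kb, and was 0% with all 5 lists limited to 9701 peaks.

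The cluster with the largest summed score (642.43) held 4 sites over 17575 bp, starting 103488 bp from Cxcr4, with no CTCF or thymocyte Rad21 peak inside. A second cluster of 3 sites with a summed score of 529.39 lay 15306 bp upstream of the same gene, with 1 DP Rad21 peak inside. Around Cxcr4, 15 of the 25 pre-B Rad21 peaks within 200 kb of its start were of this kind, 13 upstream and 2 downstream, with scores from 61.38 to 329.47 and a median of 124. The DN list had 1 peak and the DP list 13 in the same window, and the CTCF lists had 6 (pre-B) and 11 (pro-B). The megabase on chromosome 1 that includes Cxcr4 held 16 of the sites among 38 pre-B sites, the most of any megabase.

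The other leading clusters were at Sik1 (4 sites, summed score 580.11), at Mef2c (4 sites, 461.88), and at Slc12a3 near Herpud1 (4 sites, 399.61). Sik1 encodes a salt-inducible kinase. The Sik1 cluster held 1 DP Rad21 peak, and its sites of 72.51 and 220.06 lay 212 and 210 bp from a DP Rad21 peak. Inside the Slc12a3 cluster were 1 pre-B CTCF peak, 2 pro-B CTCF peaks and 1 DP Rad21 peak. Clusters of 3 sites lay 253099 bp from Arid1b (606.96) and 109568 bp from Tomm20 (601.92). The latter held 1 peak of each CTCF list and 1 DP Rad21 peak. In all, 12 megabases held 7 or more of the sites, among 16 to 66 pre-B sites each, and with 1 to 39 coding genes starting in them. The megabase in which Mef2c is the only coding gene to start held 7 of the sites among 16 pre-B sites.

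**Figure D4:**
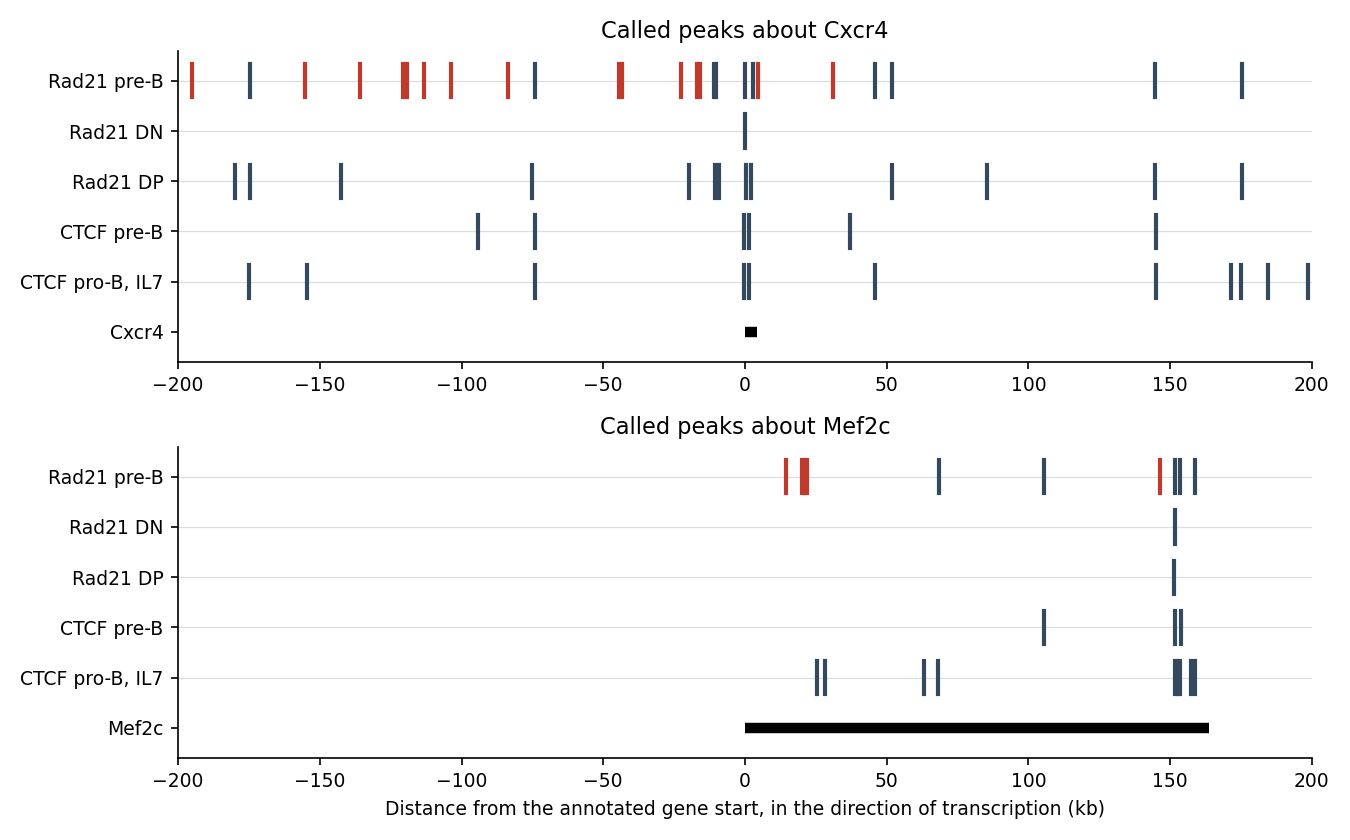
Called peaks of the 5 libraries (tracks) by distance from the annotated start of Cxcr4 (upper) and Mef2c (lower) in the direction of transcription (x axis, kb), with the gene as a black bar. Red ticks are pre-B-only Rad21 sites without CTCF, and dark ticks are all other peaks. Upstream of Cxcr4 13 red ticks extend to 195.1 kb, and in Mef2c 4 red ticks lie close together near an internal start.

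The 5 antigen receptor loci examined held 12 of these sites, all at immunoglobulin loci. Beside a share of 4.67% over all pre-B sites, there were 3 among 98 pre-B Rad21 sites at Igh, 7 among 63 at Igk and 2 among 7 at Igl, and 0 among 45 at the T cell receptor α/δ locus and 0 among 7 at the β locus. Pre-B-only sites with CTCF were more numerous at the immunoglobulin loci, with 35, 52 and 5. The strongest was a broad peak of 3633 bp at Igh (chr12:114655106-114658738, score 266.1). As the mice carried a rearranged IgM transgene, which holds further copies of part of Igh, binding at the endogenous locus and at the transgene cannot be told apart, and reads that map to up to 3 places were kept in the authors' alignment. The 7 Igk sites were all weak, with scores between 63.19 and 79.5.

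Motifs were counted in 300 bp about each peak midpoint, because the lists hold no summits. The consensus of CTCF, which the authors derived from CTCF peaks of these cell types, was found with at most 2 mismatches in 12 bases in 7.09% of the sites (5.79 to 8.57), against 39.4% of pre-B-only sites with CTCF (38.3 to 40.5) and 4.05% of sequence 2000 bp away from the sites (3.07 to 5.23). As the consensus came from CTCF peaks and the classes were split by CTCF calls, the contrast between classes follows from the rule and is a description only. The interval of the sites lay above that of the neighbouring sequence.

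Of the 16 motifs, those of E2A, EBF1 and PU.1 exceeded their share in all pre-B sites by the most percentage points. The E-box CAGCTG, a preferred site of E2A, occurred in 32.2% of the sites (29.7 to 34.7), against 14.3% of the sequence 2000 bp away (upper bound 16.3), 17.2% of pre-B-only sites with CTCF (16.4 to 18.0) and 18.5% of all pre-B sites (18.1 to 19). The EBF1 motif CCCNNGGGA was found in 12.1% (10.5 to 14.0), against 4.92%, 5.15% and 5.25% of these in turn. The PU.1 motif GAGGAAGT was found in 10.2% (8.65 to 11.9), against 2.10%, 3.04% and 2.96%. For all 3 motifs the interval of the sites lay above those of the other groups named. Both strands were searched, and CAGCTG reads the same on both.

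Shared sites without CTCF resembled them in the E-box (29.6%, 26.5 to 32.9) and overlapped in the EBF1 motif (9.48%, 7.56 to 11.7). The SP motif GGGCGG differed more, with 29.2% of the shared sites without CTCF (26.1 to 32.4) and 13.4% of the pre-B-only ones (11.7 to 15.4). At promoters these SP shares were 43.7% (38.9 to 48.5) and 31.4% (26.4 to 36.9). The ETS motif CCGGAAG was in 11.1% and 4.92% in turn. Its shares were 7.3% (4.95 to 10.3) and 1.78% (1.08 to 2.77) away from promoters, but 14.6% and 15.4% at promoters. Away from promoters the order in the E-box was turned round, with overlapping intervals. It was in 39.0% of the shared sites without CTCF (34.2 to 44.0) and 34.7% of the pre-B-only ones (31.9 to 37.7). The PU.1 motif was in 6.08% of all shared sites without CTCF (4.54 to 7.93), below the interval of the pre-B-only sites. The same held at promoters, with 4.46% (2.71 to 6.88) against 10.4% (7.25 to 14.3). But the intervals overlapped in windows of 200 bp, in whole peaks, in the lowest 20% of the list and away from promoters. The octamer ATGCAAAT was present in 3.18% of the pre-B-only sites (2.32 to 4.25) and in 1.34% of the shared sites without CTCF (0.669 to 2.38), and these intervals overlapped slightly. Within the lowest 20% of the list, again a restriction chosen after the data were seen, the E-box was in 31.7%, the EBF1 motif in 11.8% and the PU.1 motif in 11.4% of the sites without CTCF, against 17.5%, 5.18% and 3.55% of the pre-B-only sites with CTCF, so the difference was also present among sites of like scores.

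Promoter and distal sites differed in their motifs. The SP motif GGGCGG was in 31.4% of promoter sites (26.4 to 36.9) and 8.08% of distal sites (6.51 to 9.88), and the ETS motif CCGGAAG in 15.4% and 1.78%. The E-box was more frequent at distal sites, with 34.7% (31.9 to 37.7) against 23.6% (19 to 28.6). The PU.1 and EBF1 motifs had like shares in both, 10.4% and 10.1% for PU.1, and 11.9% and 12.2% for EBF1. Base composition moved with these counts: the median GC content of the windows was 51.3% in the sites, 46.3% in the neighbouring sequence, 47.7% in pre-B-only sites with CTCF and 56.0% in shared sites without CTCF. The part of GC content in the motif shares was not tested.

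In windows of 300 bp Ikaros matches were less frequent than in pre-B-only sites with CTCF or in all pre-B sites. Apart from E2A, EBF1, PU.1 and the CTCF consensus, the other motifs differed less from these groups. RUNX (TGTGGT) was in 28.2% of the sites (25.8 to 30.7), 27.2% of pre-B-only sites with CTCF and 24.5% of all pre-B sites, and Ikaros (TGGGAA) was in 20% of the sites (17.9 to 22.2) and 27.9% of pre-B-only sites with CTCF (26.9 to 28.9). The neighbouring sequence had Ikaros matches in 26.0% (23.7 to 28.4). In windows of 200 bp the shares of the sites and of pre-B-only sites with CTCF were 13.7% (12.0 to 15.7) and 19.9% (19.1 to 20.8). In whole peaks they were 45.2% (42.5 to 47.9) and 43.8% (42.7 to 44.9), without this direction. Whole peaks were of unequal length, with median widths of 612 bp and 528 bp. CAGGTG, an E-box bound by E2A and ZEB factors, was in 28.5% of the sites and 28.0% of all pre-B sites. The IRF motif GAAANNGAA (8.97% and 8.96%), the STAT motif TTCNNNGAA (6.94% and 8.07%) and the FOXO motif TGTTTAC (3.62% and 3.52%) likewise differed from all pre-B sites by less than the counting error. The ETS-IRF composite GGAANNGAA was in 13.1% and 11.0%. NF-kB (GGGANTTCC), NFY (AGCCAAT) and YY1 (AAGATGGC) were each in at most 4.19% of the sites. Several of these overlap, since the PU.1, ETS, Ikaros and composite motifs share the core GGAA. A match is a string of letters and not a measured binding site.

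**Figure D5:**
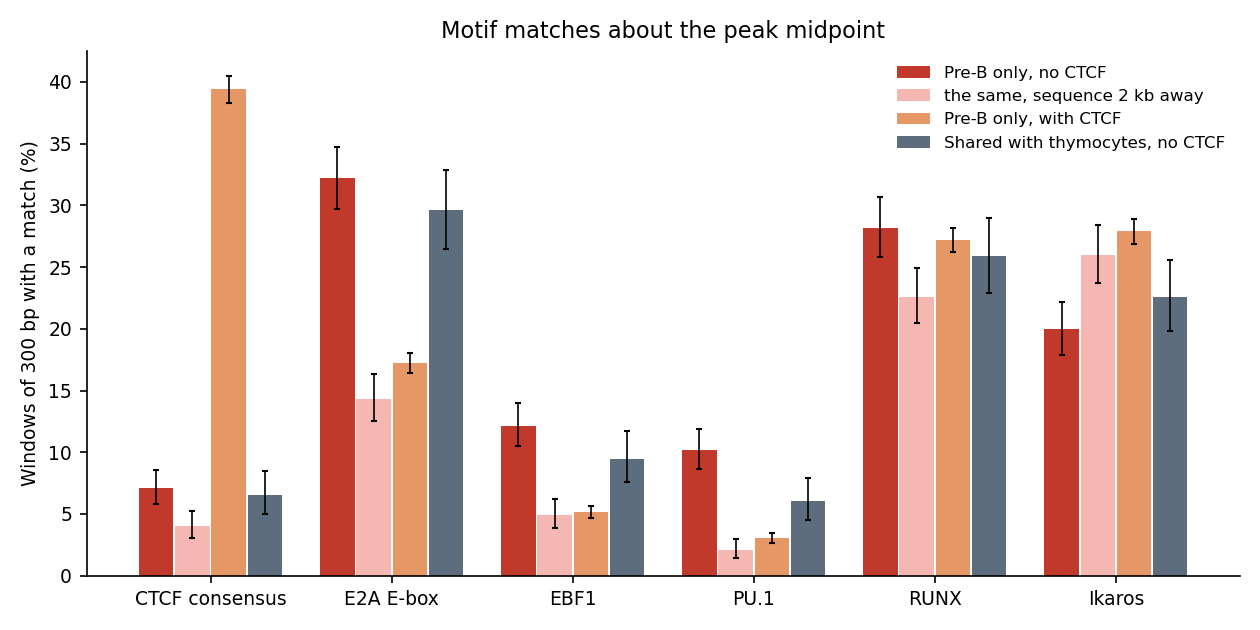
Share of 300 bp windows with a match (y axis, percent, exact 95% intervals) for the CTCF consensus and 5 motifs (x axis) in pre-B-only sites without CTCF, in sequence 2 kb from them, in pre-B-only sites with CTCF and in shared sites without CTCF. The E2A, EBF1 and PU.1 bars of the pre-B-only sites without CTCF are the highest of the 4 groups. Their E2A and EBF1 intervals overlap those of the shared sites without CTCF. The CTCF consensus is frequent in the sites with CTCF alone (39.4%).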

How the data were processed

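ChIP-seq peak lists of 5 libraries were used, 1 per group. Per the study's methods, the authors trimmed adapters, discarded duplicates, mapped to mm9 with Bowtie allowing up to 3 positions for a read, and called peaks with MACS 1.4.2 against the input of the same cells. The submitters' processing notes give Bowtie 0.12.9. The deposited files hold the position of each peak and its score, taken to be the MACS value derived from the p-value. Scores grow with depth, which is unknown, and were used within a list, apart from an alternative with 1 minimum score in all lists. Both pre-B libraries had the same input, and input reads were not analysed here.

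Peaks sharing 1 bp or more were merged with Python 3.11.15 and numpy 2.4.6, and intervals were computed with scipy 1.17.1. Places came from the GENCODE annotation of NCBI assembly 37, the assembly named mm9, and every peak ended within its chromosome there. A promoter was within 1 kb of a start, a gene window 10 kb either side, and a cluster at least 3 sites with gaps of at most 12.5 kb. Of the listed genes, 6 on chromosome X were left out and 4 were found under an older symbol. The scripts were tested on simulated data. Sites named are the 10 with the highest score, the leading 8 clusters, the nearest 3 on either side of the CTCF rule, and listed genes with a site, the 25 B-lineage genes with most sites by their values. A few genes and sequences that these rules name are not reported here. The sites, gene lists, motifs and tests were chosen with earlier results of these data known. Alternatives changed the minimum score, list length, overlap, CTCF lists, distances, gene assignment and motif window.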

Additional observations from a re-analysis of the deposited data

Results flagged for a closer look

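On chromosome X, which lies outside the rule, 18 of 677 pre-B Rad21 peaks overlapped no thymocyte Rad21 peak and no CTCF peak (2.66%, interval 1.58 to 4.17). They are listed because no comparison of the report uses that chromosome and their count is above the limit that a count of 0 allows. The chromosome also holds 6 of the listed genes, among them Btk.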

How the results depend on the processing

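Limiting the 3 Rad21 lists to the length of the shortest left 7 sites with a median percentile of 6.68 in the limited list. Of these sites 0% were at promoters and 0% in clusters, and 0 B-lineage genes held any. With all 5 lists limited in this way there were 885 sites, with a median percentile of 21.0 in the limited list, 13.1% at promoters, 14 B-lineage genes and 0% in clusters, but 878 of the 885 overlapped a peak of the whole CTCF lists. With a minimum score of 100 in all lists 641 sites met the rule, 27.5% of them at promoters, and 335 of these were among the 1383. Counting peaks within 500 bp as overlapping lowered the share in clusters to 3.17%. The promoter share was 20% within 500 bp, 28.6% within 2500 bp and 20.8% with protein-coding starts alone. The share in clusters was 2.24% with gaps of 5 kb and 8.75% with 25 kb. An overlap of 50% of the shorter peak, the pre-B CTCF list alone, gene windows of 0 or 50 kb, the nearest start within 100 kb and, chosen after the data were seen, leaving out the DN list kept the count of sites between 1383 and 2044 and the count of B-lineage genes between 26 and 43. The B-lineage share stayed above that of all coding genes in each of these. Motif shares fell in windows of 200 bp and rose in whole peaks, since longer sequence holds more matches, and left the interval of the 300 bp share for 16 and 17 of 17 searched, the CTCF consensus included. The E-box was then in 24.0% and 46.6% of the sites, against 12.6% and 27.9% of pre-B-only sites with CTCF. No paired analysis was possible because each group has 1 library.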
